A study of Mus musculus with 12 samples.

Results

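GABA-A receptor subunits were followed in mouse lung endothelial cells, in embryoid bodies derived from them and in an embryonic stem cell line. The set held 7 genes, Gabrb1, Gabra4, Gabra2, Gabrg1, Gabra3, Gabrb2 and Gabrd, of the 19938 genes measured. They were named in a list and read in the deposited log2 table, each from the brightest probe set that maps to that gene alone. The members were chosen by their group differences in signal on these same arrays, and which difference decided for each gene is not recorded. The levels of these 7 genes are therefore given as a description, with no p-value, and no p-value or count here supports their choice.

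The 12 arrays fell into 4 groups of 3. The null_EB group held embryoid bodies, free-floating aggregates, which formed in 24 to 36 h when CD47 null lung endothelial cells that had been passaged for 6 months were placed in endothelial basal medium without serum. The null_EC group held CD47 null lung endothelial cells of the C57Bl/6 strain, grown in endothelial growth medium. The ESC group was the established line V6.5, a single line without the null allele in its labels, grown in medium with 15% serum and LIF, a self-renewal factor, at 1000 IU/ml. The WT_EC group held wild-type C57Bl/6 lung endothelial cells in the same medium as null_EC. Both null groups are labelled as lacking CD47, the receptor for thrombospondin-1 and SIRP alpha. Null_EC and WT_EC share medium, strain and labelled cell type and differ in genotype, from which other differences between them cannot be told apart. In the other comparisons medium differed together with growth form, cell type or both. Passage time is given for null_EB only, and the age of the mice is not given. The labels do not tell if the 3 arrays of a group stem from different mice or dishes, so their spread may be technical.

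The receptor is a ring of subunits around a chloride channel that opens when GABA, the main inhibitory transmitter of the brain, binds. Alpha and beta subunits together form the GABA site, and a gamma or delta subunit usually completes the ring and sets drug sensitivity and location. Outside neurons, several peripheral cell types are known to carry subunits, and the genes lie in clusters that hold alpha, beta and gamma members side by side.

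All values below are log2 signals made by the authors with RMA, and group values are means ± SD of 3 arrays. Array medians lay between 7.66 and 7.75. Over all genes the median of the SDs was 0.0770 in null_EB, 0.0652 in null_EC, 0.0847 in ESC and 0.213 in WT_EC, so the WT_EC arrays spread the most. A signal below 8.01, the median of all tested values, is called low here, and no detection calls were used. Cd47 had 11.03 on average in null_EC against 12.12 in WT_EC, where it stood at 12.59, 11.29 and 12.48 (limma adjusted p = 0.0228). That call was lost without WT_EC 1, without WT_EC 3, without any null_EC array or with the 6 arrays alone. Cd47 still read 10.89 to 10.99 in null_EB and 10.98 to 11.11 in null_EC, near the 10.96 to 11.33 of ESC, and since the files do not tie the probes to the altered part of the gene, this is a weak check of the labels. Of 16 endothelial markers, 3 were above 8.01 in null_EC (Kdr, Egfl7 and Flt1) and 7 in WT_EC. The defining markers Pecam1 and Cdh5 stood at 6.57 to 6.61 and 7.09 to 7.27 on the null_EC arrays. On the WT_EC arrays Pecam1 had 6.80, 6.46 and 7.56, and Cdh5 had 9.10, 6.85 and 9.52. Pecam1 was thus low on every array of null_EC and WT_EC, beside 8.84 to 8.87 in ESC. Cdh5 was low on every null_EC array and on WT_EC 2.

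Gabrg1, Gabra2, Gabra4 and Gabrb1 lie in this order on chromosome 5, with Cox7b2 between Gabra2 and Gabra4. Gabra3 lies on chromosome X, Gabrb2 on chromosome 11 and Gabrd on chromosome 4. Promoter windows from RefSeq (build GRCm38.p6, 250 bases before to 50 after a start) were matched for 6 of the 7 genes. The starts of Gabrb1 (+ strand) and Gabra4 (- strand) are 387 bases apart and face each other, so that the first 388 bases of the transcripts overlap. For Gabra2 and Gabrg1 the nearest start on the opposite strand was that of Gabrb1, at 562072 and 815304 bases. The windows of the facing pair are shown, with those of Gabra2, a neighbour of low signal, and Gabra3, the brightest member, for comparison. Capitals mark CCAAT or GGGCGG, or the letters TATAAA, on either strand. Sequences are written on the gene's own strand.
Gabrb1, chr5:71657671-71657970, + strand: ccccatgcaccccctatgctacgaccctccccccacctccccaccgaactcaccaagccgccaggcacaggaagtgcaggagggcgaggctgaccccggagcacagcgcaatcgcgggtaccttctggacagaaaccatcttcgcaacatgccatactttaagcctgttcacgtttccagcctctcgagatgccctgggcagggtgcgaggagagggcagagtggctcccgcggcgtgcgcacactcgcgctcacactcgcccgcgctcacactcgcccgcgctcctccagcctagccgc
Gabra4, chr5:71658259-71658558, - strand: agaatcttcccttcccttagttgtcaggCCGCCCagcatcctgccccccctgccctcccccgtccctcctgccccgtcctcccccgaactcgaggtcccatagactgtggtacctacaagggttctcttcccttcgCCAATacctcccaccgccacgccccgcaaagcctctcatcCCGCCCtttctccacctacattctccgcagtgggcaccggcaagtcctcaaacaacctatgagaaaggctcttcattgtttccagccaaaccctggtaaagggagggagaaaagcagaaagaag
Gabra2, chr5:71095800-71096099, - strand: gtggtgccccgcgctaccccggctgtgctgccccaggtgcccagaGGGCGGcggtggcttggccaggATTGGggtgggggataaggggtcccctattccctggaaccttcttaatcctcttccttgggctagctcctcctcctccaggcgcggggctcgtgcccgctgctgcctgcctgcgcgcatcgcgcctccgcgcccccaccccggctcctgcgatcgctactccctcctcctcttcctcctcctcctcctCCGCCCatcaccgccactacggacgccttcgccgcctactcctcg
Gabra3, chrX:72656870-72657169, - strand: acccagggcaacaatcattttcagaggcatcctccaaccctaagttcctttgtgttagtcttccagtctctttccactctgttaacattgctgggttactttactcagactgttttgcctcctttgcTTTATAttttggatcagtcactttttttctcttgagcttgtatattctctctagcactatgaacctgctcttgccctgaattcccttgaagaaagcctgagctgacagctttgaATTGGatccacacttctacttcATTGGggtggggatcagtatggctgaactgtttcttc

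The windows differed in composition. That of Gabrb1 held 25 CpG and that of Gabra4 12, against a median of 7 over the 32851 windows of the table. Gabra2 also had 25 CpG, whereas Gabrg1 had 3 and each of the 2 windows of Gabra3 had 0. A further window of Gabrb1, at a downstream start, had 9. Searched on both strands, CCAAT occurred in Gabra4, Gabra2, Gabrg1, Gabra3 and 1 of the 3 windows of Gabrb2 (37.4% of all windows), and GGGCGG in Gabra4, Gabra2 and 1 window of Gabrb2 (35.7%). TATAAA occurred in Gabra3 and in 1 window of Gabrb2 (13.6%). CACGTG, the E-box letters bound by Myc and Max (7.15%), TGANTCA, the AP-1 letters (7.81%), and TGACGTCA, the CRE letters (1.79%), were in none of the members' windows. Neither window of Gabrb1 held any of the letters searched. A match of letters is a description of the window only.

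Gabrb1 encodes a beta subunit, which with an alpha subunit forms the GABA site. It had 9.49, 8.93 and 8.84 in null_EB, 10.61, 10.71 and 10.76 in null_EC, 7.48, 6.92 and 7.59 in ESC, and 6.99, 7.05 and 6.32 in WT_EC. The null_EC arrays were the highest, the null_EB arrays came next without overlap, and the ESC and WT_EC arrays overlapped at low signal. The mean was 10.69 ± 0.0730 in null_EC against 6.79 ± 0.406 in WT_EC, a 15.0-fold difference (log2 3.91, SE 0.238), which ranked 2 of 19938 genes from the top. In null_EB it was 9.08 ± 0.351, 3.05-fold lower than in null_EC (log2 -1.61, SE 0.207) and 4.91-fold higher than in WT_EC (log2 2.30, SE 0.310).

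Gabra4 encodes an alpha subunit that in brain is often found with delta in receptors outside synapses. It had 8.98, 8.25 and 8.40 in null_EB, 10.31, 10.33 and 10.14 in null_EC, 7.14, 7.22 and 7.35 in ESC, and 7.64, 8.42 and 6.45 in WT_EC. All null_EC arrays lay above all others, and WT_EC 2 reached the null_EB range, whereas WT_EC 3 was the lowest of the 12. The mean in null_EC was 10.26 ± 0.101 against 7.51 ± 0.992 in WT_EC, a 6.75-fold difference (log2 2.75, SE 0.576). Without WT_EC 3 the log2 difference was 2.23, and without WT_EC 2 it was 3.21. In null_EB it was 3.29-fold lower than in null_EC (8.54 ± 0.387 against 10.26 ± 0.101, log2 -1.72, SE 0.231). The null_EB and WT_EC arrays overlapped, and their log2 difference of 1.04 (SE 0.615) was 0.51 without WT_EC 3 and 1.5 without WT_EC 2.

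**Figure D1:**
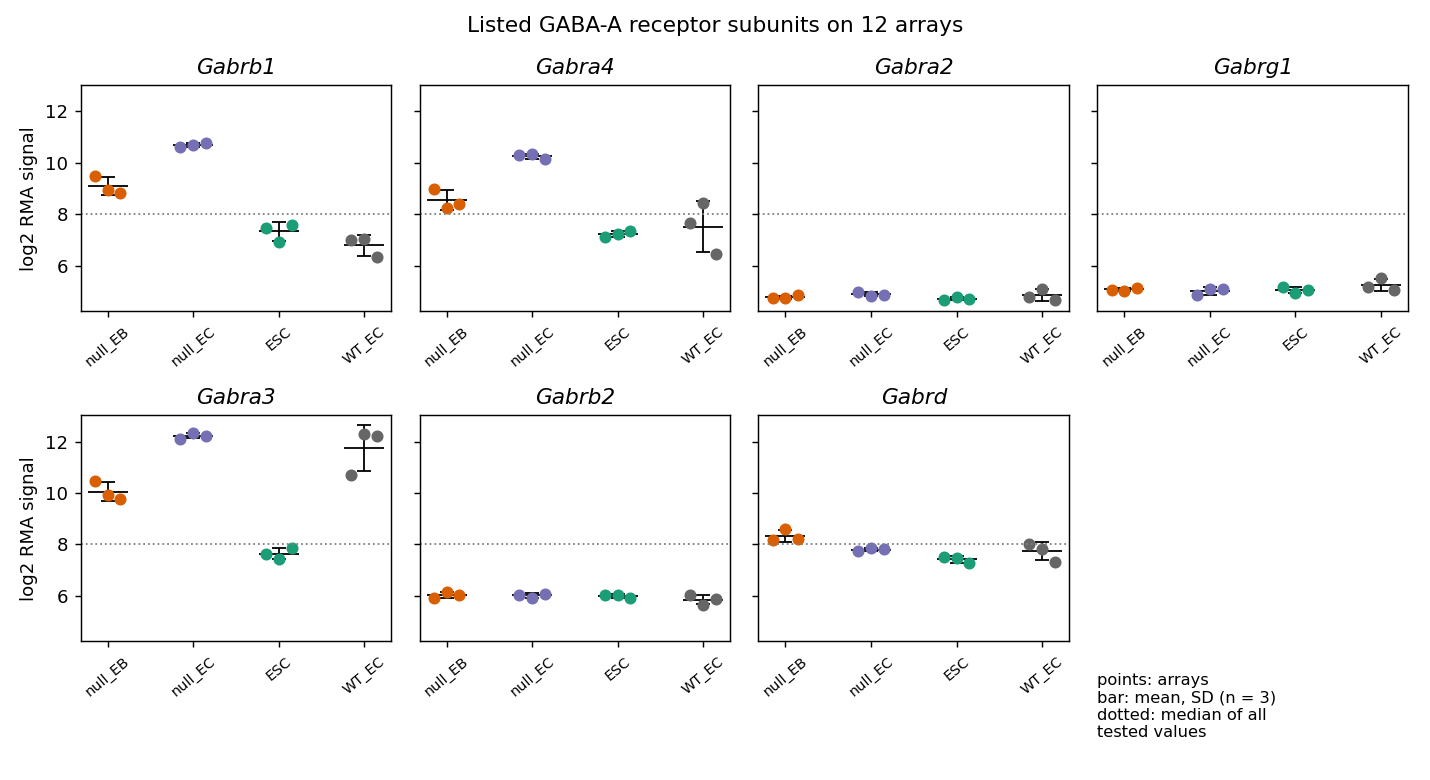
Log2 RMA signal (y axis) of the 7 listed subunits in the 4 groups (x axis). Points are arrays, bars the mean and SD of 3 arrays, and the dotted line is 8.01, the median of all tested values. Gabrb1 and Gabra4 have their highest points in null_EC, Gabra3 is near 12 in null_EC and on 2 WT_EC arrays, and Gabra2, Gabrg1 and Gabrb2 lie below the line on every array.

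Gabra2 and Gabrg1, the alpha and gamma members of the same cluster, had low signal everywhere. Gabra2 lay between 4.67 and 5.11 on the 12 arrays and Gabrg1 between 4.85 and 5.51. In null_EC over WT_EC their log2 differences were 0.04 (SE 0.142) and -0.22 (SE 0.161), and the arrays overlapped. At least 93.2% of genes had a brighter highest group mean than either of them. Probe sets differ in how they bind, so a dim probe set does not show that a transcript is absent.

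The pair was set beside the 873 measured pairs of genes whose starts lie within 1000 bases on opposite strands. Both genes were at least 2-fold higher in null_EC over WT_EC in 2 pairs, Gabrb1 with Gabra4 and Chchd10 with Mmp11, and 1 of the genes was in 6 pairs. Between null_EB and null_EC both were at least 2-fold lower in 1 pair, Gabrb1 with Gabra4, and 1 of the genes in 2 pairs. The pair was chosen with these values known, so the counts are descriptive. The files do not give probe positions, and whether either probe set lies in the shared bases was not tested.

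**Figure D2:**
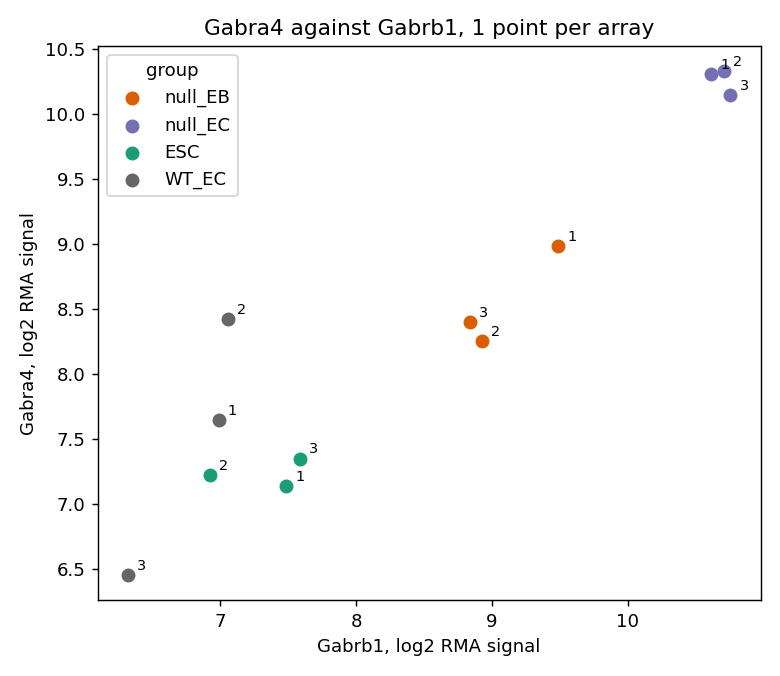
Gabra4 against Gabrb1, both in log2 RMA signal, with 1 point per array numbered by replicate and coloured by group. The null_EC arrays sit at the upper right and the null_EB arrays between them and the rest, while WT_EC 2 has a Gabra4 signal of 8.42 beside a Gabrb1 signal of 7.05.

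Of the members elsewhere in the genome, Gabra3, an alpha subunit gene on chromosome X, was the brightest. It had 10.46, 9.91 and 9.76 in null_EB, 12.12, 12.32 and 12.23 in null_EC, 7.63, 7.42 and 7.86 in ESC, and 10.71, 12.29 and 12.22 in WT_EC. WT_EC 2 and WT_EC 3 stood with the null_EC arrays, WT_EC 1 stood near the null_EB arrays, and the ESC arrays were low. It was 4.52-fold lower in null_EB than in null_EC (10.05 ± 0.371 against 12.22 ± 0.101, log2 -2.18, SE 0.222). The null_EC and WT_EC arrays overlapped (log2 0.48, SE 0.519), and without WT_EC 1 that difference was -0.034. Against ESC it was 24.0-fold higher in null_EC (log2 4.58, SE 0.139) and 5.30-fold higher in null_EB (log2 2.41, SE 0.249).

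Gabrd encodes the delta subunit, which takes the place of gamma in receptors outside synapses. It had 8.16, 8.59 and 8.20 in null_EB, 7.73, 7.85 and 7.80 in null_EC, 7.52, 7.46 and 7.26 in ESC, and 8.01, 7.83 and 7.33 in WT_EC. The null_EB arrays were the highest and did not overlap any other group. The difference was small, 1.44-fold over null_EC (8.32 ± 0.238 against 7.79 ± 0.0592, log2 0.52, SE 0.141). Gabrb2, a beta subunit gene with 3 probe sets, was between 5.65 and 6.14 on the 12 arrays at its brightest probe set, with overlapping groups in all 6 comparisons. Its other probe sets were dimmer still, at 5.45 or below.

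Members were then counted by whether the arrays of the groups did not overlap and, among these, by a difference of at least 2-fold, with the share of all genes that met the same rule beside each count. In null_EC over WT_EC 2 of 7 lay above (16.7% of genes) and 0 below (8.88%), and at 2-fold or more these were 2 higher (1.24%) and 0 lower (2.42%). For null_EB over null_EC 1 lay above (21.9%) and 3 below (19.2%), with 0 at least 2-fold higher (0.592%) and 3 lower (1.15%), Gabrb1, Gabra4 and Gabra3. For null_EB over WT_EC 2 lay above (18.4%) and 1 below (9.94%), with Gabrb1 as the 1 at least 2-fold higher (1.08%) and Gabra3 as the 1 lower (2.52%). Against ESC, null_EC had 5 above (41.7%) and 0 below (30.5%), 3 of them at least 2-fold higher (7.22%) and 0 lower (9.51%). Against ESC, null_EB had 4 above (37.8%) and 0 below (29.6%), 3 at least 2-fold higher (6.48%) and 0 lower (8.70%), and in both the 3 were Gabrb1, Gabra4 and Gabra3. In ESC over WT_EC 0 lay above (25.5%) and 1 below (26.0%), with 0 at least 2-fold higher (9.29%) and 1 lower (6.29%), Gabra3. The list was chosen with these differences known, so nothing is read from its shares. Null_EC is part of several of these comparisons, which are therefore not independent of each other.

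The mean log2 difference of the 4 clustered genes was set beside that of the 12 other measured subunits, 9 of them not in the list. In null_EC over WT_EC it was 1.62 against -0.07, a gap of 1.69. The gap came from Gabrb1 and Gabra4, since the lowest clustered value was -0.22. For null_EB over null_EC the means were -0.84 and -0.15, a gap of -0.69, which shrank to -0.30 against Gabra3, Gabrb2 and Gabrd alone, where the value of Gabra3 was the lowest of all subunits. In null_EC over ESC the gap was 1.15, but -0.034 against those 3 genes. In ESC over WT_EC it was 0.54, with clustered values between -0.27 and 0.54, and 1.42 against those 3 genes.

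The 9 measured subunits outside the list were tested in the fit over all genes. They are what remained after a choice made with results known. In null_EC over WT_EC 1 of the 9 fell, where 5.00% of all genes fell, and 0 rose. It was Gabre, the epsilon subunit gene on chromosome X, 2.00-fold lower (8.54 ± 0.171 in null_EC against 9.54 ± 0.545 in WT_EC, limma adjusted p = 0.0106). WT_EC had 9.84, 8.91 and 9.87, and null_EC had 8.40, 8.73 and 8.49, with no overlap. Without null_EC 1 it no longer passed, nor in a fit of only the null_EC and WT_EC arrays (adjusted p = 0.136). In null_EB over null_EC 0 of the 9 passed in limma, where 5.40% of all genes did (1 at an unadjusted p under 0.05).

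In null_EC over ESC 3 of the 9 were higher (25.1% of all genes) and 2 lower (22.9%). Gabre was 3.12-fold higher (adjusted p = 6.74e-05), Gabra6 1.24-fold (adjusted p = 0.00909) and Gabrr2 1.19-fold (adjusted p = 0.0366), of which Gabra6 and Gabrr2 had low signal. The call of Gabrr2 was lost without null_EC 2 or 3, ESC 2 or 3 or null_EB 2. Gabrp, the pi subunit gene, was 1.96-fold lower in null_EC than in ESC (6.31 ± 0.0702 against 7.28 ± 0.0881, adjusted p = 4.39e-06), and Gabra5 was 1.61-fold lower (adjusted p = 0.000267). Gabrp and Gabra5 had low signal in every group too, with highest group means of 7.28 and 6.74. In ESC over WT_EC 2 rose (25.4% of genes), Gabrp and Gabra5, and 2 fell (21.7%), Gabre at 6.23-fold (adjusted p = 1.9e-06) and Gabrr2 at 1.24-fold (adjusted p = 0.0123), which was lost without ESC 3, with array weights and with the 6 arrays alone. Gabrg3, Gabrq, Gabrr1 and Gabrr3 passed in none of these 4 comparisons, with highest group means of 6.81, 7.20, 6.09 and 6.24. Gabra3 and Gabre are X-linked, and sex-linked markers differed too. Xist had 10.72 to 11.06 in ESC against 12.96 to 13.32 in WT_EC, and the Y-linked Eif2s3y had 8.94 to 9.67 in ESC against 3.98 to 4.08 in WT_EC. Its part in the ESC differences was not tested.

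**Figure D3:**
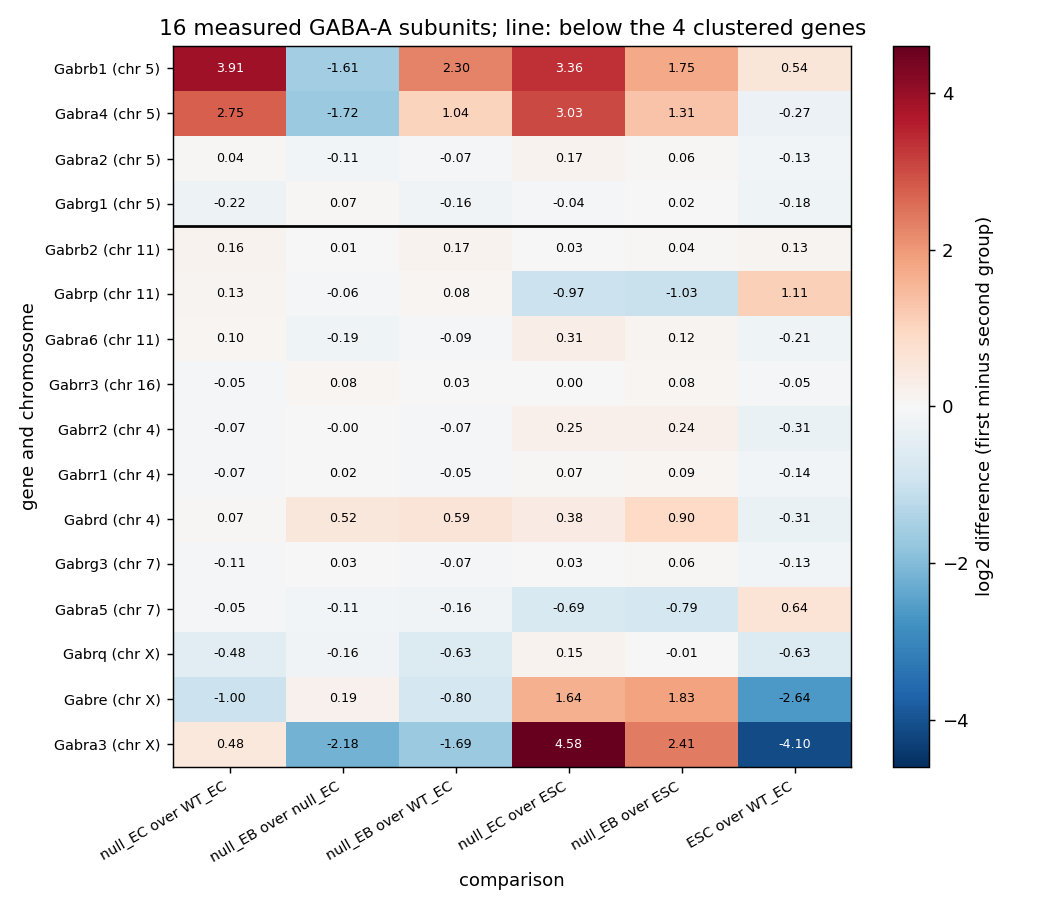
Log2 difference (colour and printed value, first minus second group) of the 16 measured subunits (rows, with chromosome) in 6 comparisons (columns). The black line separates the 4 clustered genes, of which Gabrb1 and Gabra4 reach 3.91 and 2.75 in null_EC over WT_EC, from the 12 others, where Gabra3 on chromosome X ranges from -4.10 to 4.58.

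The genes around the cluster were tested as a set fixed by position, namely Cox7b2 and the 10 nearest measured protein-coding genes on each side. In null_EC over WT_EC 3 of these 21 rose and 0 fell, beside 8.12% and 5.00% of all genes, and their median log2 difference was 0.02 against 0.03 over all genes. They were Slc30a9, a zinc transporter (1.54-fold, adjusted p = 0.00166), Bend4 (1.53-fold, adjusted p = 0.0174) and Commd8, next to Gabrb1 (1.47-fold, 9.40 ± 0.0628 against 8.85 ± 0.327, adjusted p = 0.0242). All 3 were lost with the 6 arrays alone, Commd8 also without any null_EC array or with arrays shifted to equal medians of 23 housekeeping genes, and Bend4 without null_EC 1 or 3. For the embryoid bodies 0 of the 21 passed in limma, where 5.40% of all genes did (1 at an unadjusted p under 0.05), and the median log2 difference, null_EB over null_EC, was -0.01. That count depended on the setting. Some of the 21 passed with the 6 arrays alone, with array weights or in a fit without the WT_EC arrays, as given in the last section.

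Cox7b2, between Gabra2 and Gabra4, had low signal in all groups, from 5.15 to 5.51. Its log2 difference was -0.06 in null_EC over WT_EC (adjusted p = 0.731). On the far side of Gabrg1, Gnpda2, Guf1 and Yipf7 had differences of 0.03, 0.10 and -0.10, and none of them passed. Beyond Commd8, Corin stood at -1.17 and Nfxl1 at 0.35, also not called. Corin had 7.33, 10.52 and 7.20 on the WT_EC arrays and 7.14 to 7.25 in null_EC, so its difference came from WT_EC 2. The values of the facing pair, 2.75 and 3.91, were larger than that of any other gene in the window. The pair was chosen with these values known and the neighbours by position, so nothing is read from this.

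**Figure D4:**
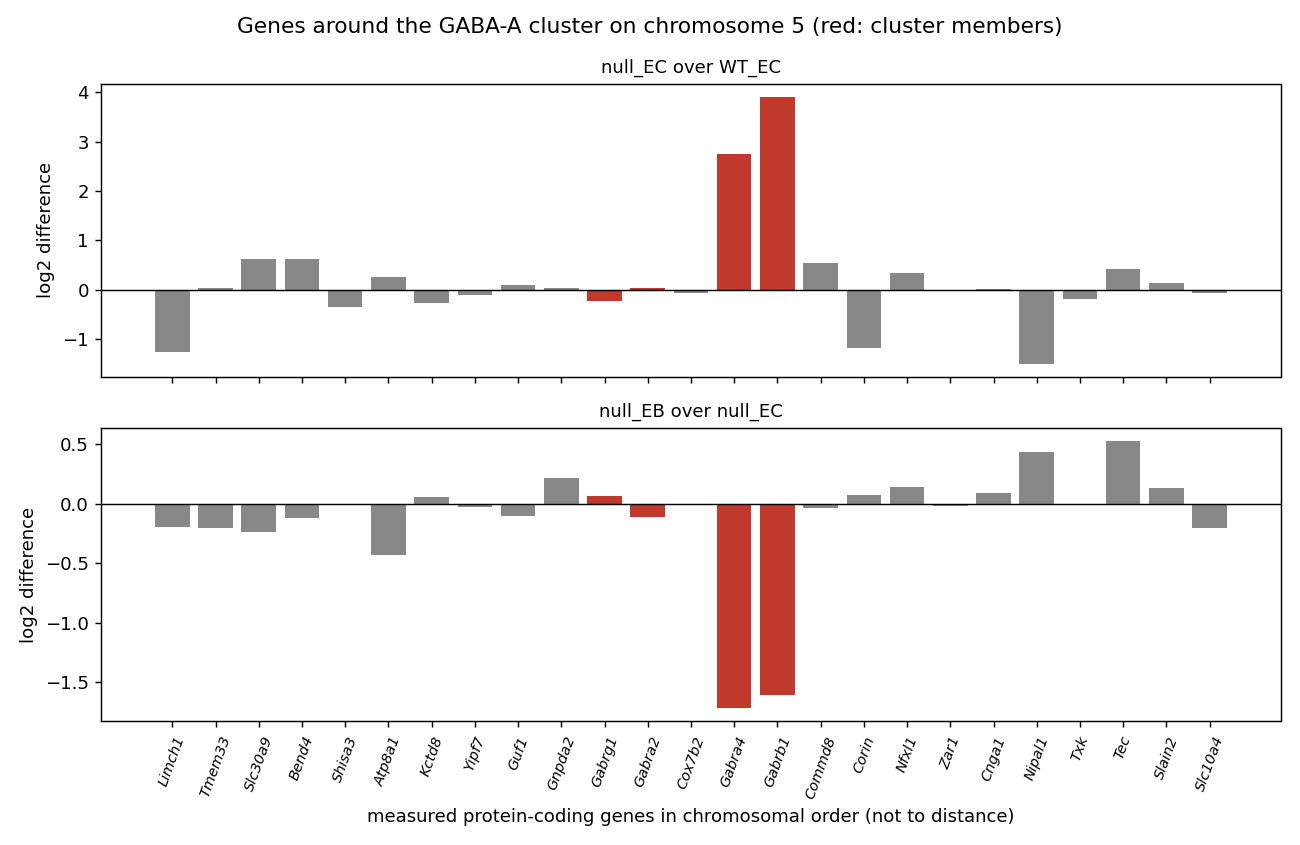
Log2 difference (y axis) of the 25 measured protein-coding genes around the cluster, in chromosomal order (x axis, not to distance), for null_EC over WT_EC (top) and null_EB over null_EC (bottom). Red bars are the cluster members. Gabra4 and Gabrb1 stand out in both panels, at 2.75 and 3.91 above and at -1.72 and -1.61 below, while Gabrg1 and Gabra2 are near 0.

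A list of 50 genes of GABA synthesis, transport, breakdown, receptor anchoring and chloride balance was read alongside, of which 46 were measured. In null_EC over WT_EC 7 rose (8.12% of all genes) and 1 fell (5.00%), and the list median was -0.02 against 0.03 over all genes. In null_EB over null_EC 1 rose (2.90%) and 2 fell (2.50%). In null_EC over ESC 12 were higher and 8 lower (25.1% and 22.9%), and in ESC over WT_EC 11 were higher and 11 lower (25.4% and 21.7%). The shares called, 17.4%, 6.52%, 43.5% and 47.8%, were near the 13.1%, 5.40%, 47.9% and 47.1% of all genes, and nothing is read from the list as a whole. The split by direction depended on the scaling. With arrays shifted to equal housekeeping medians 9 pathway genes were higher and 1 lower in null_EB over null_EC, beside 5419 and 260 of the 19938 genes. In null_EC over ESC they were 15 and 6, beside 7545 and 3417 of all genes. In ESC over WT_EC they were 4 and 21, beside 3426 and 9337. Array weights gave 5 higher and 16 lower in null_EB over null_EC, beside 4254 and 3747 of all genes. With the 6 arrays of null_EC and WT_EC alone none of the 46 was called by limma.

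Among handlers of the receptor itself, Plcl1 encodes a phospholipase C-related protein that binds GABARAP and beta subunits and aids receptor traffic. It had 8.86, 8.47 and 8.66 in null_EB, 9.71, 9.77 and 9.67 in null_EC, 7.29, 7.51 and 7.27 in ESC, and 8.04, 8.70 and 8.88 in WT_EC. Its null_EC arrays lay above all others. It rose 2.26-fold in null_EC over WT_EC (log2 1.18, SE 0.186, adjusted p = 0.00203) and fell 2.07-fold in null_EB over null_EC (log2 -1.05, adjusted p = 0.00884), and it was 5.13-fold higher in null_EC than in ESC (adjusted p = 1.39e-06). A fit of only null_EC and WT_EC arrays put the first of these at adjusted p = 0.0513, and leaving out null_EB 2 put the next at adjusted p = 0.0531.

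Gabarapl1, a relative of the receptor-binding protein GABARAP that also serves autophagy, rose 1.81-fold in null_EC over WT_EC (12.73 ± 0.0440 against 11.87 ± 0.511, adjusted p = 0.0134), a call lost without null_EC 1. Arfgef2, an exchange factor of vesicle traffic that binds beta subunits, rose 1.70-fold (adjusted p = 0.00715). Slc38a1, a glutamine transporter, rose 2.17-fold (adjusted p = 0.0201), a call lost without null_EC 1 or 3. Gphn, which encodes gephyrin, the scaffold of inhibitory synapses, fell 1.25-fold (9.66 ± 0.0262 against 9.98 ± 0.155, adjusted p = 0.0297), and this was lost without any null_EC array, without WT_EC 1 or with array weights. In null_EB over null_EC Nsf, a fusion ATPase that binds GABARAP, fell 1.33-fold (adjusted p = 0.0150), and Hap1, which aids recycling of receptors to the surface, rose 1.44-fold (adjusted p = 0.0249). Both calls were lost without null_EB 2 or 3 or without null_EC 1 or 3, that of Hap1 also without null_EC 2, and that of Nsf also with the housekeeping shift.

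GABA itself is made by Gad1 and Gad2 and loaded into vesicles by Slc32a1. All 3 had low signal in null_EC, at 7.48, 6.10 and 7.09 on average, and none passed in null_EC over WT_EC (adjusted p = 0.877, 0.270 and 0.630). Gad2 and Slc32a1 were low in every group. Abat, which breaks GABA down, had 10.24 ± 0.204 in null_EC and 8.27 ± 0.0222 in ESC, a 3.90-fold difference (adjusted p = 1.28e-05), and was 4.11-fold lower in ESC than in WT_EC (adjusted p = 1.11e-05). Slc38a3, another glutamine transporter, was 2.63-fold lower in null_EC than in ESC (adjusted p = 1.24e-05) and 2.53-fold higher in ESC than in WT_EC. Odc1, of polyamine synthesis, was 2.21-fold lower in null_EC than in ESC (adjusted p = 0.0290), lost without any array of either group. In ESC over WT_EC the chloride importer Slc12a2 rose 1.98-fold (adjusted p = 2.13e-06) and Gphn fell 2.41-fold (adjusted p = 4.59e-07).

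**Figure D5:**
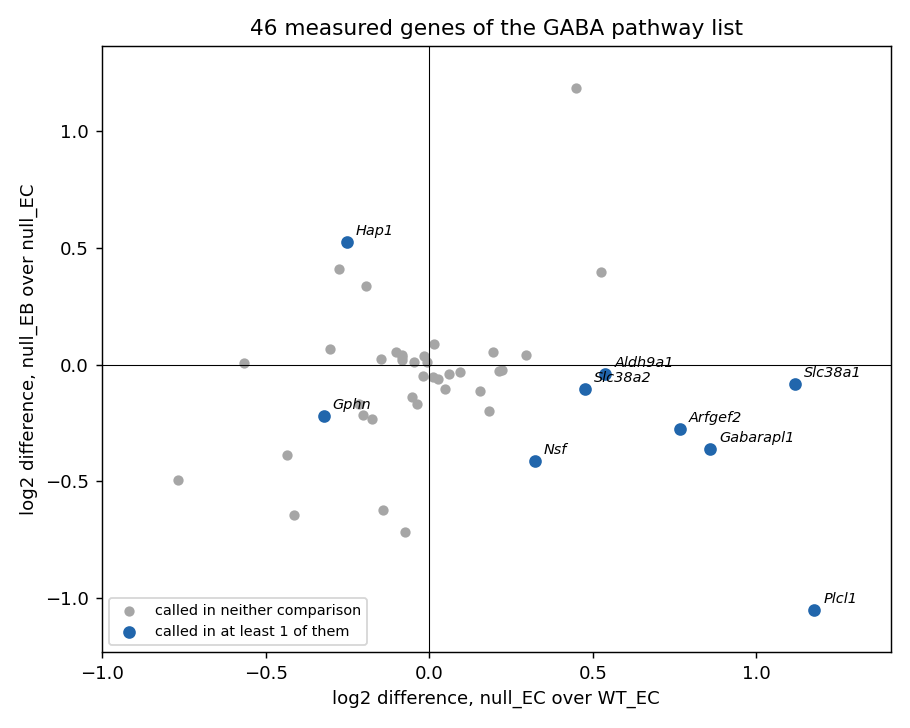
Log2 difference of the 46 measured GABA pathway genes in null_EC over WT_EC (x axis) and in null_EB over null_EC (y axis), which share the null_EC arrays. Blue points passed limma in at least 1 of these comparisons and are named. Plcl1, at 1.18 and -1.05, is the furthest to the lower right.

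Markers of other cells were read beside the subunits. Of 21 measured neural markers 2 rose in null_EC over WT_EC (9.52%, near the 8.12% of all genes), Ncam1 (11.76 ± 0.0691 against 10.43 ± 0.582) and Mbp (9.82 ± 0.0565 against 9.11 ± 0.343), and with Sox10 these were the 3 above 8.01 in null_EC, while Tubb3, Rbfox3 and Snap25, which define neurons, stood at 6.75 to 7.43 there. The median of the neural list was 6.81 to 6.92 in null_EB, 6.83 to 7.02 in null_EC, 7.35 to 7.55 in ESC and 6.95 to 7.13 in WT_EC. In these groups 2, 3, 6 and 4 of the 21 were above 8.01, so this median rests mostly on low signals. Ncam1 averaged 10.99 in null_EB and 9.52 in ESC, and Mbp 9.64 and 7.82, while the other 19 were not called in null_EC over WT_EC. Of 11 mesothelial markers 5 rose in null_EC over WT_EC (8.12% of all genes) and 4 fell in null_EB over null_EC (2.50%). The other members did not pass, among them Krt8 at -1.46 and Krt18 at -1.42 (log2, null_EC over WT_EC). Their median was 10.31 to 10.75 in null_EB, 11.41 to 11.49 in null_EC, 7.85 to 7.90 in ESC and 10.53 to 11.68 in WT_EC. The list median of WT_EC 3, 11.68, was its value of Krt8, a keratin gene at 8.48 to 8.58 in null_EC. Msln, Krt8, Krt18 and Krt19 were higher on WT_EC 3 than on every null_EC array. Upk3b, Upk1b, Wt1, Lrrn4, Muc16 and Podxl were lower, and Gpm6a lay within the null_EC range. The Gabrb1 and Gabra4 signals of WT_EC 3 were the lowest of the 12. Podxl, Muc16, Wt1 and Lrrn4 were among both the 5 markers that rose and the 4 that fell. In null_EC over WT_EC 0 of 10 immune markers rose and 1 fell (8.12% and 5.00% of all genes). Of 12 fibroblast and mural markers 0 rose and 2 fell. The immune median was 7.76, 6.49 and 9.32 on WT_EC 1, 2 and 3, against 6.56 to 6.71 in null_EC. The fibroblast and mural median was 10.24 to 10.89 in null_EC and 10.56 to 11.89 in WT_EC. The part of such cells in the results on the subunits was not tested, and in bulk RNA more cells of a type and more RNA per cell cannot be told apart.

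The genes whose pattern was most like that of each bright cluster member were ranked by the root mean square difference over the 12 arrays after centring each gene on its own mean. For Gabrb1 these were Emx2 (0.52), Gabra4 (0.58), Hoxc13 (0.63), Prss12 (0.66) and Kcnd2 (0.69), set against a root mean square of 1.56 for Gabrb1 itself. For Gabra4 they were Emx2 (0.41), Kcnd2 (0.41), Igfbp3 (0.54), Trem2 (0.54) and Vat1l (0.56), with Gabrb1 at place 12 (0.58). Emx2, a homeobox gene on chromosome 19, averaged 8.43 in null_EB, 10.03 in null_EC, 7.02 in ESC and 7.24 in WT_EC. Predicted genes, clone names, pseudogenes, olfactory and vomeronasal receptors and small RNAs were left out of the ranking by their symbols. So was every symbol that begins with Rn, and the places are among the genes that remained. Arrays of a group share culture and cell type, so these distances describe the 12 arrays only.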

How the data were processed

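RNA of 12 mouse samples was measured on whole-transcript arrays, 1 sample each. The authors deposited log2 signals, 1 per probe set and array, made by the authors with Affymetrix Expression Console 1.2.1 and RMA, per the submitters' processing notes. The protocol text refers to a human chip, but the identifiers were those of the mouse platform. Of 35556 probe sets 21789 had 1 gene, and the brightest of each gene by its mean over 12 arrays was used. In R 4.3.3, limma 3.58.1 estimated the 4 group means from the 12 arrays jointly, and genes were called at an adjusted p (Benjamini-Hochberg over 19938 genes) below 0.05. The error is pooled over groups, although WT_EC spread more than the others. The fit was tested on simulated data with the same spread of a gene in every group, so that test does not cover the wider spread of WT_EC. Errors of members' differences come from the 2 groups alone. The members and lists were chosen with earlier results of these data known. Genes named are Cd47, the members, all other subunits, the called pathway genes with the largest changes (up to 4 each way in null_EC over WT_EC and null_EB over null_EC, up to 2 elsewhere), the 3 nearest neighbours on each side and called ones, and the 5 nearest patterns. Alternatives were a housekeeping shift, array weights, a replicate block, other probe set rules, 6 arrays alone and leaving out each array. No columns of the 12 were identical, and depth does not apply to arrays, where 3 per group limits precision. RefSeq GRCm38.p6 gave gene order and promoters. The replicate numbers did not pair the arrays.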

Additional observations from a re-analysis of the deposited data

How the results depend on the processing

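Under the housekeeping shift, the mean of all probe sets and leaving out each array, 314 of 336 values of the members' log2 differences stayed within 1 SD of the value given, 22 moved further, and none of at least 2-fold changed sign. Leaving out 1 of 3 arrays cannot move a difference by the larger SD of its groups. The mean of all probe sets changes only Gabrb2, since every other member has 1 probe set. Most of the 314 values could thus not move further, and no stability is read from that count. Shifting arrays to equal housekeeping medians moved the median of all genes by 0.30 in null_EB over null_EC, 0.17 in null_EC over ESC, -0.24 in ESC over WT_EC and -0.07 in null_EC over WT_EC. Gabrb1, Gabra4 and Gabra3 in null_EB over null_EC were then -1.31, -1.42 and -1.88. The counts of all genes called (2615 in null_EC over WT_EC, 1077 in null_EB over null_EC, 9560 in null_EC over ESC and 9394 in ESC over WT_EC) depended on the setting. With that shift they were 1742 in null_EC over WT_EC (758 higher, 984 lower, against 1619 and 996) and 5679 in null_EB over null_EC (5419 higher, 260 lower, against 578 and 499), with 5 and 10 pathway genes and 4 neighbours in null_EB over null_EC. With the 6 arrays alone 588, 5464 and 6250 genes were called in null_EC over WT_EC, null_EB over null_EC and ESC over WT_EC, with 0 and 18 pathway genes in the first 2 and 0, 5 and 2 neighbours. Array weights gave 8001 genes, 21 pathway genes and 7 neighbours in null_EB over null_EC, and 33 pathway genes in null_EC over ESC. A fit without the WT_EC arrays, added after seeing the data, gave 5058 genes, 18 pathway genes and 4 neighbours in null_EB over null_EC. Leaving out 1 array gave 1335 (without null_EC 1) to 5435 (without WT_EC 2) genes in null_EC over WT_EC, 390 (without null_EB 2) to 2676 (without WT_EC 1) in null_EB over null_EC, 7997 to 11420 in null_EC over ESC and 7973 to 11196 in ESC over WT_EC. The pathway counts, 8, 3, 20 and 22, became 3 to 15, 0 to 11, 18 to 23 and 20 to 30, and the neighbour counts, 3, 0, 9 and 10, became 1 to 7, 0 to 3, 3 to 11 and 4 to 13. The gap between clustered and other subunits was 1.43 to 1.96, -0.80 to -0.60, 1.11 to 1.19 and 0.28 to 0.81. Set against Gabra3, Gabrb2 and Gabrd alone it was -0.30 in null_EB over null_EC, -0.034 in null_EC over ESC and 1.42 in ESC over WT_EC. Against the subunits above 8.01 alone, Gabra3, Gabrd and Gabre, it was -0.36, -0.57 and 2.34. Gabra3 weighs more in both of these sets than among all other subunits, and the later set holds Gabre in place of Gabrb2. Same-numbered arrays did not deviate together (correlations -0.26 to 0.22), so the numbers do not pair them. With the replicate block 2239, 764, 9149 and 8954 genes, 6, 3, 20 and 22 pathway genes and 2, 0, 9 and 9 neighbours were called. Of the called pathway genes, neighbours and other subunits named here, Commd8 and Gphn in null_EC over WT_EC and Gabrr2 in null_EC over ESC did not pass with the block. The calls of cell type markers were not followed under the block or any other setting. The cause of the other changes was not tested.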
